A study of Mus musculus with 2 samples.

Results

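T cells and innate lymphoid cells were 175 of the 16190 barcodes that passed the depth and mitochondrial limits in 2 single-cell libraries of mouse intestinal lamina propria. Members were chosen by their own UMI counts. A barcode needed at least 1000 UMIs (counted RNA molecules), at most 20% mitochondrial UMIs, at least 2 of the 6 genes Cd3e, Cd3g, Cd3d, Trbc1, Trbc2 and Il7r, and a UMI of Ptprc, which encodes CD45. It also needed no UMI of the B cell gene Cd79a or of the fibroblast gene Pdgfra, and less than 1% of its UMIs from the pancreatic genes Ctrb1 and Cpa1. The levels of these genes in the members therefore follow from the rule and are given as a description.

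Both groups were C57BL/6 mice that carry the ApcMin mutation in 1 Apc copy. Their age is 11 weeks by the labels, and is not given uniformly in the sources used here. The ApcMin library came from ApcMin/+;Lef1 +/+ mice, and the VApcMinL library from ApcMin/+;Lef1 fl/fl; Villin-Cre mice. The study asked whether loss of Lef1 in the epithelium changes the tissue around the tumors. Villin-Cre is active in intestinal epithelium, so the lymphocytes themselves are not the cells in which the deletion is driven. Live cells without Ter119, EpCAM and CD45 were sorted before 10x Genomics 3′ sequencing, so the members carry RNA of a protein against which the sort selected. There was 1 library per genotype and the number of mice behind each is not given in the sources used here. No difference between the genotypes can thus be set against a spread between replicates, and every interval below covers counting error only.

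T cells recognise antigen through a receptor of alpha and beta or of gamma and delta chains, which signals through the CD3 proteins. Innate lymphoid cells lack this receptor but share much of the cytokine program of helper T cells, and many depend on interleukin 7. In the gut, both populations guard the barrier: regulatory T cells restrain inflammation, type 17 T cells and ILC3 make interleukins 17 and 22, and cytotoxic lymphocytes lie within and below the epithelium.

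The ApcMin library held 104 members among 7593 passing barcodes, or 1.37% (95% exact Clopper-Pearson interval 1.12 to 1.66%). The VApcMinL library held 71 among 8597, or 0.826% (0.646 to 1.04%). The share in VApcMinL was 0.603 times that in ApcMin (exact conditional interval 0.439 to 0.823). Set against passing barcodes with a Ptprc UMI, of which there were 1492 and 1141, the shares were 6.97% and 6.22%, and their ratio was 0.893 (0.651 to 1.22). When members with a UMI of Col1a1, Col3a1, Dcn, Epcam, C1qa, Ms4a1 or Pecam1, or with over 1% immunoglobulin UMIs, were left out, 34 and 10 members were kept and the ratio of shares of all passing barcodes was 0.260 (0.114 to 0.538). This setting is called below the one without RNA of other cells. It left out 70 ApcMin and 61 VApcMinL members, but the passing barcodes they are set against were not filtered. Its ratio of shares thus also follows how many members each library lost. The sort against CD45 bears on both shares, and its part was not tested. Of the passing barcodes, 24 occurred in both libraries, and no member barcode was a member in both.

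Depth was alike in the middle and not at the top. Members had a median of 6519 UMIs in ApcMin (range 1040 to 97095) and 6302 in VApcMinL (1127 to 20872). They summed to 894967 and 491310 UMIs. The deepest ApcMin member alone held 10.8% of its library's member UMIs. It had 2947 UMIs of 7 myeloid markers and 19 of the rule genes, and the comparison of levels is therefore also given without the sub-cluster to which it belongs.

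Most members were well inside the rule. All 6 genes were detected in 26 ApcMin and 20 VApcMinL members, and 5 of 6 in 43 and 18. Just inside the limit, 9 and 8 members had exactly 2. Just outside, 54 and 27 barcodes met every other condition with 1 gene only. Ptprc had a median of 8 UMIs in ApcMin members and 5 in VApcMinL members, with 1 UMI in 5 and 8 of them. A further 7 and 4 barcodes failed only for want of a Ptprc UMI.

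The markers of the label, Cd3e, Cd3g, Cd3d, Trbc2 and Il7r, are all among the rule genes, so their levels describe the members and do not check the label. Cd3e, a signalling chain of the receptor complex, was found in 84 ApcMin and 49 VApcMinL members, at levels of 498 and 425 CPM. CPM is a gene's UMIs scaled to a fixed total of all UMIs of the same cells. It lies at chr9:44998740-45009627 of GRCm38 on the minus strand, beside Cd3d and Cd3g. The empty droplets, barcodes of UMI rank 45000 to 90000, gave Cd3e at 11.9 and 6.98 CPM. Cd3e had no UMI in 3279 and 3732 fibroblast-rule cells, which were chosen by UMIs of Pdgfra and Col3a1, by no UMI of Ptprc and by fewer than 2 of the rule genes.

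Trbc2, a constant segment of the beta chain at chr6:41546730-41548352, was found in 93 and 67 members. Trbc1 and Trbc2 are near-identical, so the split of reads between them is uncertain. With that limit, 72 of the 175 members had Trbc2 alone, 10 had Trbc1 alone, 88 had both and 5 had neither. Il7r, the interleukin 7 receptor at chr15:9505788-9530176, was found in 75 and 52 members. A CD3 gene was present in 145 members, and the other 30 had none, so the rule took in cells that its T cell markers alone would not name.

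Receptor genes outside the rule bear on the label without having chosen the members. Trac, the alpha chain constant segment, was found in 120 members and was absent from 28 of the 30 without a CD3 UMI. A gamma or delta constant gene (Trdc or Tcrg-C1 to Tcrg-C4) was found in 52 members, of which 19 had Trdc. Only 3 members had both Trdc and Trac. Variable segments were sparse, as the libraries count 3′ ends: 18 members had an alpha and 26 a beta segment, and no such segment occurred in more than 4 cells. Among gamma and delta segments, Trgv2 was found in 14 cells and Trdv4 in 13.

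Clustering the members alone gave 5 sub-clusters. They were clustered on the same genes that describe them, so the folds below are descriptions with no test. Names come from marker lists, and a name ending in -like says only that those markers lead.

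The type 17 T or ILC3-like sub-cluster held 35 cells, 16 from ApcMin and 19 from VApcMinL. It was led by Il22, a cytokine that acts on epithelium, and by Tmem176a and Tmem176b, which stand on the same marker list. Il22, at chr10:118204942-118210047, had 193 of its 209 UMIs here, in 9 cells. Nrgn was found in 19 of the 35 and in none of the other 140, and Klrb1b in 23 and 3.

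Most of these cells, 23, had neither CD3 nor Trac RNA. Of the 35, 24 had no CD3 UMI and 2 had Trac, while 34 had Il7r and 31 had Trbc2. They entered by Il7r with Trbc2 in 19 of the 24 cells without CD3. Every one of the 35 had Trbc1 or Trbc2. Trdc was found in 7, Tcrg-C1 in 16 and any gamma or delta constant gene in 22. Kit, a receptor of ILC3 and mast cells, was found in 21, and Ncr1, a receptor of NK cells and some ILC3, in 7. Il23r, the interleukin 23 receptor, was found in 18, Il17a in 4 and Il17f in 2. Cxcr6, a chemokine receptor of tissue lymphocytes, was found in 31. The set thus mixes cells with and without CD3 or Trac RNA.

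The regulatory T-like sub-cluster held 36 cells, 24 and 12. Foxp3, the factor that defines regulatory T cells, was found in 17 of them and in 1 other member. Lef1, which stands on the recirculating T cell list, was found in 11 of the 36, all without Foxp3. The name thus need not describe every cell of the sub-cluster. A CD3 gene was found in 35. Ctla4, an inhibitory receptor, was found in 30 cells, Ikzf2 in 28 and Tnfrsf4 in 28. Klrg1 and Il1rl1, which stand on the ILC2 list, were also among its 10 leading genes, as many as from the regulatory list. Of its 17 cells with Foxp3, 13 had Klrg1 or Il1rl1 and 14 had Gata3. Il1rl1, the interleukin 33 receptor, had 164 of its 220 UMIs in these cells, and Areg, a growth factor for epithelium, had 116 of its 180. Igha was a leading gene too, in 33 of the 36 cells and in 136 of the other 139, and 955 of its 2007 UMIs there came from 1 cell.

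A sub-cluster of 16 cells, 9 and 7, is left unnamed and called here by its leading genes Klrd1 and Gzma. Its 10 leading genes held 4 markers of the CD8 intraepithelial list (Cd7, Gzma, Ccl5, Tyrobp) and also Klrd1, Klrc1, Klrc2, Klrk1 and Cd244, receptors of NK cells and cytotoxic T cells. Ccl5, a chemokine of effector lymphocytes, was found in all 16 at 15205 CPM. Gzma, a granule protease at chr13:113093825-113100981, was found in 8 cells at 10771 CPM. Cd8a was found in 6 and Cd8b1 in none. A gamma or delta constant gene was found in 13 and Trac in 7. Il7r was found in only 4, the fewest of the 5 sub-clusters by share.

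The largest sub-cluster, of 78 cells (49 and 29), matched no list and is called here by 2 leading genes, Il12rb2 and Cd40lg. Il12rb2, a chain of the interleukin 12 receptor, was found in 37 of the 78 cells and in 6 of the other 97. Cd40lg, the helper signal to B cells, was found in 35. A CD3 gene was found in 75, Trac in 70, Cd4 in 40 and Cd8a in 10. Ifng was found in 18, Tbx21 in 19 and Fasl in 43. Haemoglobin genes were also among its leading genes, but 94.9% of their UMIs came from 2 cells with 10670 and 10620, against a median of 6.5. Without haemoglobin genes in the clustering, 71 of the 78 cells stayed in 1 cluster.

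The last sub-cluster held 10 cells, 6 and 4, and was led by Apoe, Lyz2, C1qa and other genes of macrophages. All 10 also had a CD3 UMI, and 8 had Trac. Its median depth was 14991 UMIs, against 5366 to 6593 in the others. Both cell types' RNA was thus present in these barcodes. They are called myeloid-like, since the label of T cell does not describe their leading genes. The 10 were not alike. The deepest had 1937 UMIs of Lyz2, while the ApcMin member of 51671 UMIs had 9 of Lyz2, 49 of Trbc2 and 170 of Gzma. Leaving the sub-cluster out thus also removes RNA of T cell genes.

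**Figure D1:**
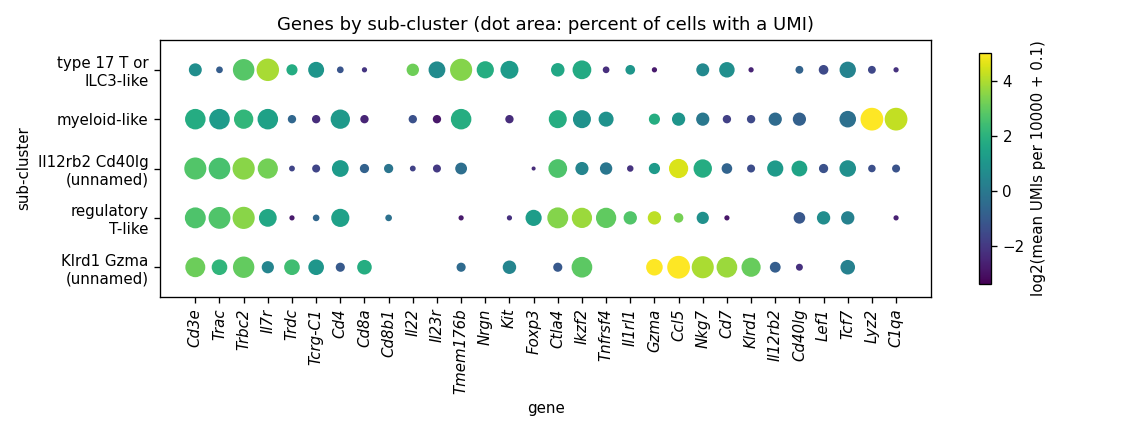
Detection and level of chosen genes in the 5 sub-clusters; dot area is the percent of cells with a UMI and colour the mean level as log2(UMIs per 10000 + 0.1). Il23r and Nrgn mark the type 17 T or ILC3-like cells, Foxp3 the regulatory T-like cells and Klrd1 the Klrd1 Gzma cells, while Lyz2 and C1qa stand out in the 10 myeloid-like cells.

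**Figure D2:**
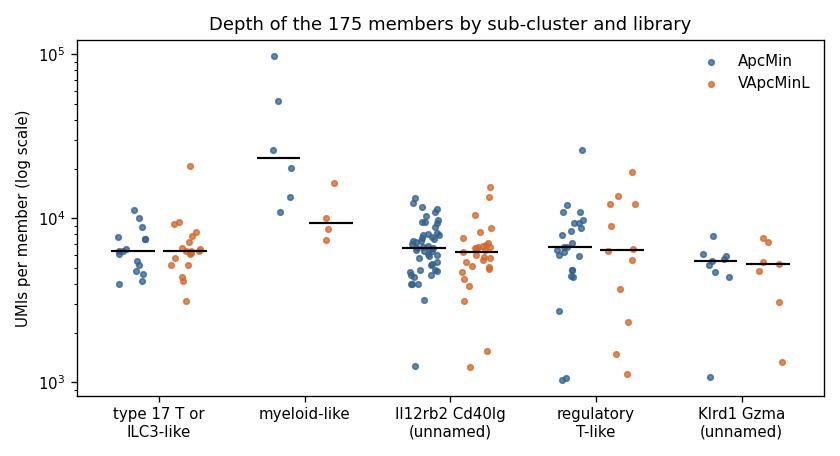
UMIs of each of the 175 members on a log scale, by sub-cluster and library, with black lines at medians. The deepest member, at 97095 UMIs, is an ApcMin member of the myeloid-like sub-cluster.

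States defined by detected genes were then counted, and a cell may be in several. Cd4, the helper co-receptor, was found in 52 of 104 ApcMin members (50%, interval 40.0 to 60.0%) and in 21 of 71 VApcMinL members (29.6%, 19.3 to 41.6%). The ratio of shares was 0.592 (0.338 to 0.999), an interval that ends just under 1. After thinning every member to 1000 UMIs it was 0.463, with an interval of 0.151 to 1.20, and without RNA of other cells it was 0.243 (0.00574 to 1.6). Fibroblast-rule cells had Cd4 in 1.16% and 1.42%. Cd4 is also made by macrophages: it was found in 41.1% of myeloid-rule cells in ApcMin and 29.7% in VApcMinL, and in 7 of the 10 myeloid-like members.

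The cytotoxic state, at least 2 of Gzma, Gzmb, Nkg7, Ccl5 and Cd160, was found in 58 ApcMin members (55.8%, 45.7 to 65.5%) and in 27 VApcMinL members (38.0%, 26.8 to 50.3%), with a ratio of 0.682 (0.415 to 1.09). No fibroblast-rule cell of the 3279 and 3732 met it. Cd8a was found in 14 and 4 members, with a ratio of 0.419 (0.10 to 1.33). Foxp3 was found in 13 and 5, with a ratio of 0.563 (0.157 to 1.68). After thinning to 1000 UMIs both were on the other side of 1, Cd8a at 1.10 (0.161 to 6.49) from 4 and 3 cells and Foxp3 at 1.46 (0.196 to 10.9) from 3 and 3. The cytotoxic state was at 1.02 (0.335 to 2.63) without RNA of other cells. The intervals of these 3 ratios include 1, so a difference was not detectable at this depth.

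Gamma or delta genes were found in 27 ApcMin members (26.0%) and 25 VApcMinL members (35.2%), with a ratio of 1.36 (0.755 to 2.43). Members without a CD3 UMI numbered 13 (12.5%) and 17 (23.9%), with a ratio of 1.92 (0.876 to 4.29). The type 2 state, 2 of 7 genes that include Gata3 and Il1rl1, was found in 15 and 12 members, with a ratio of 1.17 (0.501 to 2.68), and of 0.915 after thinning. The intervals of all 3 ratios include 1. Cycling cells, by 2 of 5 genes, numbered 9 and 2, where fibroblast-rule cells gave 1.01% and 0.831%.

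**Figure D3:**
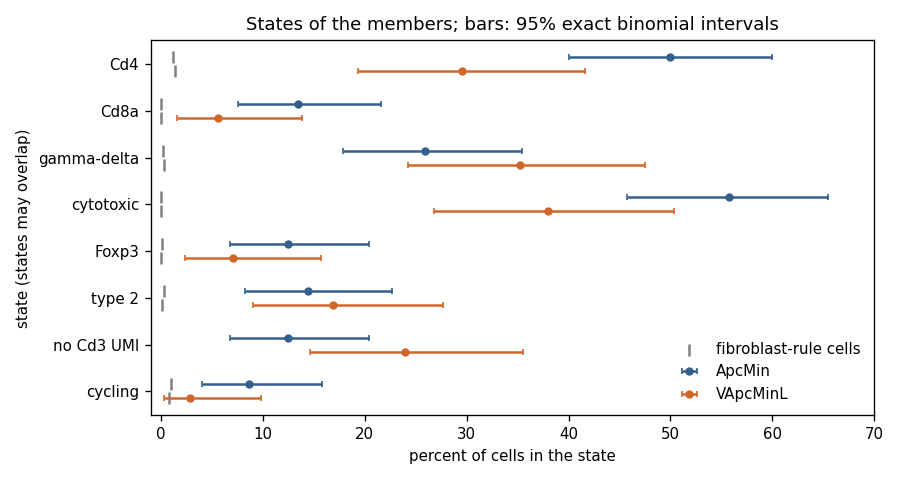
Percent of members in each state for ApcMin and VApcMinL, with 95% exact binomial intervals, and the percent of fibroblast-rule cells as grey ticks (not drawn for the state without Cd3). Cd4 and the cytotoxic state have the widest gaps between libraries, and the intervals of the libraries overlap in every state drawn.

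Lef1, the deleted gene, lies at chr3:131110471-131224356. It was found in 15 ApcMin members (14.4%, 8.30 to 22.7%) and 11 VApcMinL members (15.5%, 8.0 to 26.0%). Its level was 50.3 CPM (36.7 to 67.3) and 32.6 CPM (18.6 to 52.9), from 45 and 16 UMIs, with a ratio of 0.648 (0.342 to 1.17). The ratio was 0.973 (0.503 to 1.80) with the highest Scrublet doublet scores left out, and 0.568 by the mean of each cell. Without the myeloid-like cells it was 0.535 (0.282 to 0.965), an interval that ends just under 1. Those cells had no Lef1 UMI, so the 45 and 16 UMIs stayed, and only the UMI totals they are scaled to changed. Reads at the 3′ end may lie outside the deleted part, and the Cre is epithelial, so these values do not check the labels. By sub-cluster, Lef1 was highest in the regulatory T-like one, where 11 of 36 cells had it. None of those 11 cells had a Foxp3 UMI. No Lef1 UMI was seen in the 16 Klrd1 Gzma and 10 myeloid-like cells. Tcf7, its relative in T cells, was found in 50 and 28 members at 130 and 126 CPM.

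Summed over members, 2104 genes had at least 100 UMIs and are called measured below. In VApcMinL, 20 of them (0.951%) were at least 2-fold higher and 75 (3.56%) at least 2-fold lower, and the median log2 ratio was 0.00. With 1 library per genotype these are counts past a fold, not calls of a test. Of the 75 lower genes, 30 had over 50% of their ApcMin UMIs in the deepest member. Without the 10 myeloid-like cells, an alternative chosen after seeing the data, 15 of 1674 genes (0.896%) were higher and 26 (1.55%) lower. Of the 75, 24 stayed at least 2-fold lower and 8 became at least 2-fold higher.

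By the naming rule, the 10 genes of lowest ratio were Il1rn, Arg1, Mmp12, Lyz2, Top2a, Ube2c, Il1b, Cxcl2, Clec4n and Tgfbi. Between 67.3% (Top2a) and 100% (Mmp12) of the UMIs of each lay in the myeloid-like sub-cluster. Lyz2, lysozyme of macrophages, had 2105 UMIs in ApcMin, 92.0% of them in 1 cell, and 45 in VApcMinL, with a ratio of 0.0389. Without the myeloid-like cells its ratio was 2.01, in the other direction, with an interval of 0.776 to 5.39 that includes 1. In that setting Cxcl2 at 0.0636 (0.0230 to 0.142), Top2a at 0.116 and Arg1 at 0.342 stayed at least 2-fold lower. Ube2c was at no more than 0.753 and Tgfbi at 3.01, and Il1rn, Mmp12, Il1b and Clec4n gave no value.

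The rule genes differed between libraries in both directions. Cd3e had a ratio of 0.854 (0.721 to 1.01) and Cd3g of 0.772 (0.656 to 0.906), while Cd3d was at 1.22 (1.03 to 1.44) and Trbc1 at 1.33 (1.13 to 1.58). Trbc2 was at 0.989 (0.876 to 1.12). Without RNA of other cells, Cd3g was at 0.506 (0.322 to 0.767) and Trbc2 at 0.517 (0.322 to 0.798), and without the myeloid-like cells Cd3d was at 0.984. Il7r was at 488 CPM in ApcMin and 926 CPM in VApcMinL, with a ratio of 1.90 (1.66 to 2.17), and of 1.64 without the myeloid-like cells. Of 11 receptor complex genes, 8 had enough UMIs and none was at 2-fold. The median log2 ratio of the list was 0.02, beside 0.00 over all genes. Without the myeloid-like cells 1 was 2-fold lower. Of 17 co-receptor and signalling genes, none of the 14 measured was at 2-fold, with Ptpn22 at 1.11 and Cd28 at 1.01.

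Survival and cytokine signalling genes held 2 of the higher genes. Bcl2, which blocks cell death, had 70 UMIs in 28 ApcMin members and 98 in 38 VApcMinL members, at 78.2 and 199 CPM, with a ratio of 2.55 (1.86 to 3.52). Socs2, a cytokine feedback inhibitor, had a ratio of 2.23 (1.58 to 3.16). No gene of the 15 measured on this list was 2-fold lower. Of all sub-clusters, the type 17 T or ILC3-like cells held the largest part of the UMIs of Bcl2 and Socs2, with 45.2% and 47.9%.

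The 10 genes of highest ratio were Calca, Kcnq1ot1, Lmo4, Bcl2, Ramp3, Gimap5, Ahcyl2, Socs2, Xcl1 and Atxn7, from 3.89 to 2.15. Calca, which encodes calcitonin gene-related peptide, had 37 and 79 UMIs in 8 members of each library, and 62.0% of those in VApcMinL came from 1 cell. Its ratio was 1.73 (1.03 to 2.87) with the highest Scrublet scores left out, and 0.381 (0.0739 to 1.24) without RNA of other cells. Lmo4, a transcription cofactor, had 198 and 279 UMIs in 42 and 34 members, with a ratio of 2.57 (2.13 to 3.1), and 67.5% of them in the type 17 T or ILC3-like cells. Without RNA of other cells Lmo4 turned the other way, to 0.286 (0.101 to 0.652). Ramp3, a partner of peptide hormone receptors, had a ratio of 2.42 (2.0 to 2.94). It was at 1.92 without the myeloid-like cells and at 3.65 without RNA of other cells. Kcnq1ot1, a long noncoding RNA, was at 4.37 in the latter setting. Of these genes, Xcl1 also leaned on few cells, with 42.3% of its VApcMinL UMIs in 1, and was at 6.32 without RNA of other cells. With the highest Scrublet scores left out Xcl1 was at 1.49 (1.11 to 1.98), and without the myeloid-like cells at 1.88.

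Of 27 cytotoxic and NK receptor genes, 14 were measured, 3 were 2-fold lower (Gzma, Ccl4, Tyrobp) and 1 higher (Xcl1), with a median log2 ratio of -0.68. Gzma had 1380 UMIs in 28 ApcMin members and 224 in 10 VApcMinL members, at 1542 and 456 CPM, with a ratio of 0.296 (0.256 to 0.341). In VApcMinL, 67.0% of Gzma UMIs came from 1 cell. Empty droplets also had more Gzma in ApcMin (103 CPM) than in VApcMinL (14.9 CPM). Ccl5 had a ratio of 0.588 (0.536 to 0.644). Tyrobp, an adapter of myeloid and NK receptors, was at 0.463, and at 1.22 without the myeloid-like cells.

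Effector cytokines and helper genes followed few cells. Of 6 cytokine genes measured, Ifng, Tnf and Il22 were 2-fold lower. Il22 had 190 UMIs in 8 ApcMin members and 19 in 5 VApcMinL members, with a ratio of 0.182 (0.107 to 0.292), and 47.9% and 52.6% of the UMIs came from 1 cell in each. Ifng was found in 18 and 9 members, with a ratio of 0.401 (0.246 to 0.628). Tnf was at 0.201, and at 0.559 without the myeloid-like cells. Il22 was also the 1 gene 2-fold lower of 5 measured on the type 17 list. Tmem176b on that list was 2-fold higher at 2.11, where empty droplets held 248 and 419 CPM of it.

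On the regulatory list, Tnfrsf9, a costimulatory receptor, was 2-fold lower of 8 genes measured, with 178 and 37 UMIs and a ratio of 0.379 (0.258 to 0.542). Ctla4 was at 0.924 (0.790 to 1.08). On the type 2 list, 6 genes were measured, with Calca 2-fold higher and Il1rl1 and Arg1 2-fold lower. Il1rl1 was at 0.288 (0.189 to 0.424), from 190 UMIs in 13 members and 30 in 7, while Rora was at 1.12. Of 13 homing and residency genes, Cd69, an early activation and residency marker, was lower, with 329 UMIs in 59 members and 76 in 31 and a ratio of 0.421 (0.323 to 0.541), and Rgs1 was at 0.622. Klf2, a factor of recirculating cells, was at 0.352 (0.244 to 0.496), from 231 and 81.4 CPM where empty droplets held 227 and 221 CPM. Satb1, a chromatin organiser of T cells, was at 1.01.

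All 21 early response and heat shock genes were measured. Of them, 3 were 2-fold lower (Ier3, Zfp36, Klf6) and none higher, with a median log2 ratio of -0.45, and -0.43 without the myeloid-like cells. Klf6 was at 0.486 (0.40 to 0.588), from 573 and 279 CPM where empty droplets held 336 and 382 CPM, and Hspa8, a constitutive chaperone, was at 0.765. Ier3 was at 0.178, with 76.8% of its ApcMin UMIs in 1 cell, and was at 1.4 without the myeloid-like cells. Interferon-induced genes showed none of 8 at 2-fold, and so did 8 genes of the Lef/Tcf and Wnt list, with median log2 ratios of 0.09 and 0.02.

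Of 7 cycling genes measured, 4 were 2-fold lower, with a median log2 ratio of -1.48, and of -0.33 without the myeloid-like cells. Mki67 had 141 and 7 UMIs, and 47.5% of those in ApcMin came from 1 cell. Of the metabolite handling list, Apoe alone of 6 was lower, and no gene was 2-fold lower without the myeloid-like cells, whose first leading gene is Apoe. No class I or II MHC gene of 7 was at 2-fold. Without the myeloid-like cells, 4 class II genes were higher in VApcMinL, from H2-Ab1 at a ratio of 6.16 to H2-Eb1 at 7.83, with H2-Aa at 6.83. These ratios rest on few cells: of the 165 members of both libraries in that setting, 18 had H2-Ab1, 23 had H2-Aa and 22 had H2-Eb1. For Cd74, the invariant chain, at 6.49, 430 of the 459 UMIs of the VApcMinL type 17 T or ILC3-like cells came from 1 cell. No follicular helper or checkpoint gene of 13 reached 100 UMIs.

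**Figure D4:**
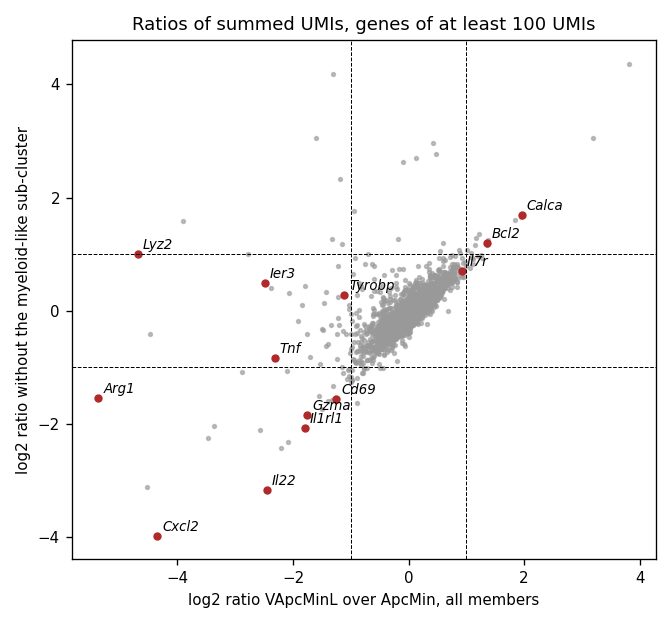
Log2 ratio of summed UMIs, VApcMinL over ApcMin, for genes of at least 100 UMIs, over all members (horizontal axis) and without the 10 myeloid-like members (vertical axis), with dashed lines at 2-fold. Gzma, Il22, Il1rl1 and Cd69 lie past 2-fold on both axes, while Lyz2, Ier3 and Tyrobp cross 0.

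Without the 10 myeloid-like cells, the same naming rule put Il22, Il1rl1, Gzma, Tnfrsf4, Tnfrsf9, Ifng, Cd69, Areg and Klk8 among the genes at the low end. Il22 was at 281 CPM in ApcMin and 31.2 CPM in VApcMinL, with a ratio of 0.111 (0.0595 to 0.191). Tnfrsf4, the receptor OX40, had 195 UMIs in 34 of 98 ApcMin cells and 42 in 16 of 67 VApcMinL cells, with a ratio of 0.324 (0.226 to 0.454). Its UMIs lay to 81.4% in the regulatory T-like cells, of which ApcMin held 24 and VApcMinL 12. Within those cells its level was 875 CPM (744 to 1022) in ApcMin and 365 CPM (253 to 510) in VApcMinL. In both libraries they include cells with and without Foxp3, and the level was not split between these. Areg was found in 12 cells of each library, at 209 and 86.9 CPM, and 44.0% and 41.0% of its UMIs came from 1 cell in each. At the high end, Bcl2 was at 2.3 (1.66 to 3.21) and Cxcr4, a homing receptor, at 2.29 (1.59 to 3.31), with 77.0 CPM in ApcMin and 176 CPM in VApcMinL.

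RNA of other cells was present in the members. Haemoglobin genes were found in members of both libraries, with medians of 10 and 3 UMIs and 7.07% and 2.06% of empty droplet UMIs. The 5 plasma cell markers took 0.0825% of member UMIs in ApcMin and 0.601% in VApcMinL, with up to 1052 UMIs in 1 VApcMinL member, and immunoglobulin exceeded 1% of UMIs in 2 and 11 members. Myeloid markers ranged from 0 to 2947 UMIs in ApcMin and from 0 to 85 in VApcMinL, and outside the myeloid-like cells summed to 50 and 32. Cd79a and Pdgfra were at 0 in both libraries by rule. The share of members and the ratios of the rule genes and of the genes at either end were recomputed without RNA of other cells, over 34 and 10 members. The part of haemoglobin RNA was not tested.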

How the data were processed

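The members, gene lists and marker lists were chosen with earlier results of these data known. The authors deposited raw UMI counts per gene and barcode for each library, without cell calling or normalization; the submitters' processing notes name Cell Ranger 2.1.1 and the count files 3.1.0, on mm10. Reads were sequenced from 3′ ends, so levels were not compared between genes. Here, counts were read for every barcode, and members selected on the rule in the report. Member UMIs were summed per library into CPM with exact Poisson intervals. A gene with no UMI in a library was set at a floor of 3 counts, and none was given a ratio where both libraries were at or under it. Shares have 95% Clopper-Pearson intervals and ratios exact conditional binomial ones. Reads from 1 molecule were merged by UMI, but cells of 1 library are not replicates, so no test was run.

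Sub-clusters came from Leiden clustering in scanpy 1.11.5 (1000 variable genes, 15 principal components, 15 neighbours, resolution 0.6), without mitochondrial, ribosomal protein, immunoglobulin and receptor segment genes. Leading genes had a UMI in at least 25% of the sub-cluster's cells and were ordered by fold with 0.1 added per 10000 UMIs. A sub-cluster was named by the class with most markers among its 10 leading genes, a rule set after the sub-clusters were seen. A tie was settled by the share of each list found. Erythroid markers were not used for naming, and a sub-cluster with Cd8a in under 50% of its cells was not named for CD8, both settled after the sub-clusters were seen. Doublets were left in, apart from the Scrublet alternative.

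Genes named are, by rule, those of 17 lists with most UMIs or past 2-fold, the 10 highest and 10 lowest ratios of genes at least 2 times above empty droplets (without mitochondrial, sex-linked and unnamed genes), Lef1 and the rule genes. Leading genes of sub-clusters and others were named after their values were seen. The ratio step was checked on simulated counts. Positions are from GENCODE vM21 on GRCm38. Some genes, and states defined with them, are not reported here.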

Additional observations from a re-analysis of the deposited data

How the results depend on the processing

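No paired analysis was possible because there is 1 library for each genotype. For the comparisons, 101 alternative values moved by less than the counting interval, or stayed within 1.5 times the count, and 14 did not. For states of few cells that interval is wide, so a value within it need not be near the main one. The 101 include Foxp3, from 0.563 to 1.46 after thinning, and Cd8a, from 0.419 to 1.10. The share of members, 0.603 in the main setting, was 0.260 when members with RNA of other cells were left out, which kept 34 and 10 members, and 0.893 against barcodes with Ptprc. The Cd4 ratio was 0.243 without members with RNA of other cells. The 20 higher and 75 lower genes became 10 and 17 in that setting, 52 and 200 at a minimum of 50 UMIs, 9 and 38 at 200 UMIs, and 837 and 1390 with no minimum. The lower genes became 42 by the mean of each cell, and, in settings added after the data were seen, 32 without the deepest ApcMin member and 26 without the myeloid-like cells. Of single genes whose interval over all members did not include 1, 7 ratios or upper bounds lay on the other side of 1. Without members with RNA of other cells these were Calca at 0.381, Lmo4 at 0.286, and Top2a at no more than 1.14 and Ube2c at no more than 2.57, which are upper bounds because VApcMinL was at 0 and set at 3 UMIs. Without the myeloid-like cells they were Lyz2 at 2.01, Tgfbi at 3.01 and Cd3d at 0.984. Trbc2, whose interval includes 1, was at 1.12 with the highest Scrublet scores left out and at 1.01 at no more than 10% mitochondrial UMIs. Apart from the fewer cells or genes each setting keeps, the cause was not tested. States at or under 3 cells, and genes at or under 3 UMIs, in both libraries gave no value. Reclustering, also added after the data were seen, with another seed, another resolution or no haemoglobin genes gave 4 to 7 clusters, with adjusted Rand indices of 0.533 to 0.889. The 10 myeloid-like cells stayed together each time, but in a cluster of 13 cells with another seed and of 17 in the other settings. The edge of that sub-cluster thus moved, and the values without the myeloid-like cells leave out the 10 of the main clustering. At resolution 0.4 the 16 Klrd1 Gzma cells lay in a cluster of 88.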
